A study of Homo sapiens with 8 samples.

Results

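The distal long arm of chromosome 11 carried 902 of the 68148 LSD1 regions of the series. They come from the LSD1 summit lists of MDA-MB-231 cells with and without RCOR2. All summits between 90 and 130 Mb of chromosome 11 (hg19) were taken, and summits no more than 500 bp from the next were joined into a region. Another 2424 regions lay on the rest of chromosome 11 and 64822 on the other chromosomes. The stretch was chosen by the measured ranks of its summits, which were lower in RCOR2-KO1 lists than in parental lists, so the KO1 and parental values below describe that choice and no test is given for them.

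The assay was CUT&RUN, in which an antibody guides a nuclease to a chromatin protein and the released DNA fragments are sequenced. MDA-MB-231 is a human triple-negative breast cancer line. Parental cells and cells labelled RCOR2-KO1, in which RCOR2 was knocked out by CRISPR, were each profiled with LSD1 antibody in 2 libraries, and both were grown in DMEM with fetal bovine serum, with no treatment labelled. Normal rabbit IgG libraries of both genotypes were the background for peak calling and are not analysed here. The methods state that several knockout clones were mixed for a mouse line and do not say how many clones make up RCOR2-KO1 in this line. The lists hold no measurement of RCOR2 itself, so the knockout label could not be checked in them.

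LSD1, the product of KDM1A, is a demethylase that removes methyl groups from lysine 4 of histone H3 at promoters and enhancers. It acts with CoREST scaffold proteins, of which RCOR2 is one, and with the histone deacetylases HDAC1 and HDAC2, and the complex is best known as a repressor of gene activity. Distal 11q holds several genes that are well known in breast and other cancers, among them YAP1, a growth-promoting co-activator of the Hippo pathway, BIRC2 and BIRC3, inhibitors of apoptosis, MMP1, a collagenase, ATM and CHEK1, kinases of the DNA damage response, KMT2A, a histone H3 lysine 4 methyltransferase, and ETS1 and FLI1, transcription factors of the ETS family. RCOR2 lies on chromosome 11 too, before all of these genes in the RefSeq order. No annotation or genome sequence of hg19 was used here, so no region below is tied to a gene and no sequence is shown.

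Each deposited summit is a 1 bp position with a −log10 value of a p or q, and the lists held 47354 and 54467 summits in parental libraries and 49586 and 50119 in KO1 libraries. A summit's percentile is the share of its own list at or below its −log10 value, so that 100 is the strongest summit of a list, and a region takes its strongest summit in each library. The methods describe CUT&RUN as a repeated experiment and do not say whether the libraries of a genotype came from separate cultures. Nor do they say whether the replicate numbers pair the libraries, so comparisons by replicate number below rest on an arbitrary matching. The −log10 value grows with the number of fragments at a site, so LSD1 per copy of DNA and the number of DNA copies cannot be told apart in these lists.

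KO1 lists held a smaller share of their summits on distal 11q than parental lists. The stretch had 643 and 735 summits in the parental libraries, which were 1.36% and 1.35% of their lists. It had 626 summits in each KO1 library, which were 1.26% and 1.25%. The means were 1.35% ± 0.01 in parental and 1.26% ± 0.01 in KO1 (SD, n = 2), and the genotypes did not overlap. On the rest of chromosome 11 the shares were 3.64% and 3.59% in parental and 3.60% and 3.59% in KO1.

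Most LSD1 regions of the stretch were found in both genotypes. All 4 lists held 459 of the 902 regions (50.9%), against 54.8% on the rest of chromosome 11 and 52.6% on the other chromosomes. A further 112 regions were in 3 lists, 127 in 2 lists and 204 in a single list. Among the regions that were absent from 1 list, KO1 lists were the ones missing more often, with 36 and 32 regions missing from KO1 replicates 1 and 2 and 27 and 17 missing from parental replicates 1 and 2. On the rest of chromosome 11 the first parental list lacked the most such regions, with 100 against 36 for the second parental list and 65 and 66 for the KO1 lists.

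Regions present in both libraries of 1 genotype and in neither library of the other were more often parental. Of the 648 distal 11q regions shared by the libraries of at least 1 genotype, 53 (8.18%) were parental-only, where 5.84% of such regions were parental-only over all chromosomes. The KO1-only regions numbered 24 (3.704%), where 4.99% were KO1-only over all chromosomes. There were thus 2.21 parental-only regions for each KO1-only region on distal 11q and 1.13 on the rest of chromosome 11, where 98 and 87 were counted. The ratio on distal 11q was 1.21 without KO1 replicate 1, 1.44 without KO1 replicate 2, 1.74 without parental replicate 2 and 3.32 without parental replicate 1, where the rest of the chromosome gave 0.82, 0.83, 1.005 and 2.42. By 5 Mb bin, parental-only regions outnumbered KO1-only regions in 6 of 8, with 11 against 0 at 110 to 115 Mb, and KO1-only regions were more at 100 to 105 Mb, with 6 against 3, and at 125 to 130 Mb, with 8 against 6.

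One-genotype regions were weak on the whole, on distal 11q as on the rest of chromosome 11. On the rest of the chromosome their median percentiles were 23.1 (parental-only) and 25.8 (KO1-only). The parental-only regions had a median percentile of 22.7 (from 4.34 to 82.7), and 7 of the 53 reached 50. The KO1-only regions had a median of 30.4 (from 3.99 to 85.03), and 5 of the 24 reached 50. As to their surroundings, 30 of the 53 parental-only regions had no KO1 summit within 10 kb, while 7 of the 24 KO1-only regions had no parental summit within 10 kb. On the rest of chromosome 11 this was so for 40 of 98 parental-only and 36 of 87 KO1-only regions. Whether these shares differ was not tested.

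The strongest parental-only and the strongest KO1-only region were neighbours. The parental-only region, chr11:94524433-94524544, stood at the 76.1 and 89.4 percentiles in the parental lists. The KO1-only region, chr11:94523803-94523848, stood at 80.4 and 89.7 in the KO1 lists. They lie 585 bp apart, just over the joining distance, so that at this place both genotypes had a strong summit at positions that were counted apart. The second parental-only region, chr11:100590709-100590734 at 74.5 and 70.8, also had a KO1-only region 521 bp away, chr11:100590133-100590188 at 35.2 and 45.3. For the other 3 of the 5 strongest parental-only regions the nearest KO1-only region was at least 209713 bp away. The next KO1-only region was chr11:128380034-128380096 at 70.2 and 74.1.

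The 459 regions found in all 4 lists ranked lower in both KO1 libraries than in both parental libraries. Their median percentile was 65.3 and 68.9 in parental replicates 1 and 2 and 58.8 and 56.8 in KO1 replicates 1 and 2, which gave 67.1 ± 2.52 against 57.8 ± 1.39 (SD, n = 2). On the rest of chromosome 11 the 1329 regions found in all lists had medians of 61.9 and 67.4 in parental and 63.1 and 64.7 in KO1, and there the genotypes overlapped. The distal regions thus stood above the rest of the chromosome in parental lists and below it in KO1 lists, as the plot of percentiles by library shows.

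**Figure D1:**
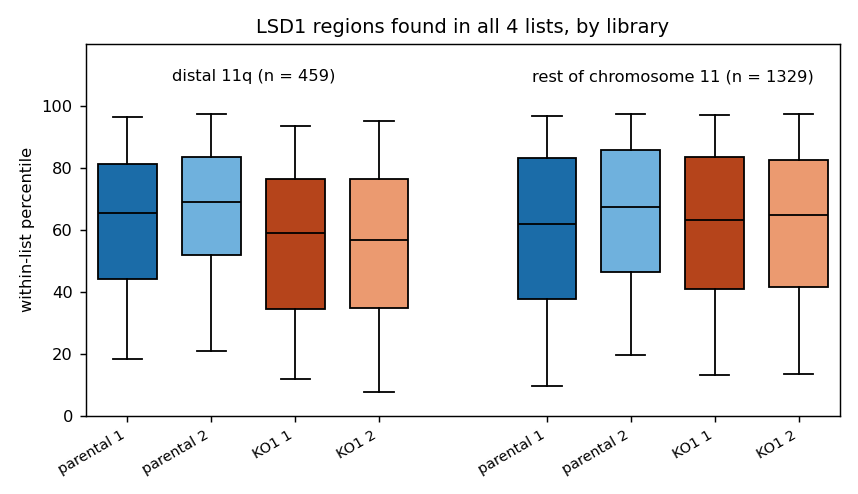
Within-list percentile (vertical axis) of the LSD1 regions found in all 4 lists, for distal 11q on the left and the rest of chromosome 11 on the right; each box is a library, with the median as the line, the quartiles as the box and the 5th and 95th percentiles of the regions as whiskers. On distal 11q both KO1 medians, 58.8 and 56.8, lie below both parental medians, 65.3 and 68.9.

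Region by region, the KO1 mean minus the parental mean had a median of −8.50 percentile points on distal 11q, with quartiles of −17.1 and 0.36. The medians were −0.68 on the rest of chromosome 11 and −0.50 on the other chromosomes. Taken by replicate number, the median difference on distal 11q was −5.70 between the first libraries and −8.94 between the second libraries, where the rest of the chromosome gave 0.74 and −2.63. Taken across the numbers, it was −10.4 for the first KO1 against the second parental library. For the second KO1 against the first parental library it was −6.00. The rest of the chromosome gave −2.01 and 1.05. Within a genotype, the second parental library stood 2.16 points above the first and the second KO1 library 0.27 points above the first, as medians over the same distal regions.

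The lower rank was spread over most of the regions. The KO1 mean was below the parental mean in 340 of 459 regions (74.1%), against 53.0% on the rest of chromosome 11 and 52.3% elsewhere. Both KO1 percentiles lay below both parental percentiles in 201 regions (43.8%), where 22.4% did so over all chromosomes. They lay above both parental percentiles in 45 regions (9.80%), where 19.6% did so over all chromosomes. A difference of more than 20 points downward was seen in 89 regions (19.4%, against 9.71% on the rest of the chromosome) and upward in 17 (3.704% against 7.75%).

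Other chromosomes were divided into windows of 40 Mb counted from their start, of which 80 held at least 100 regions found in all lists. In the 61 windows of full length the medians ran from −4.93 to 3.11 points, and at most 67.8% of the regions of a window were lower in KO1. The other 19 windows were cut short by the end of the chromosome, and 3 of them had medians below −5, at the ends of chromosomes 16, 18 and 21. The lowest of these, the last 10.1 Mb of chromosome 16, was close to distal 11q, with a median of −8.12 points over 203 regions, medians of −7.20 and −6.96 for the first and second libraries and 75.4% of regions lower in KO1. The window on chromosome 18 was nearly of full length, at 38.0 Mb. Its 305 regions had a median of −6.78 points, with −4.57 and −8.58 for the first and second libraries and 70.2% lower in KO1. The bounds of the distal 11q stretch were set on these same values, which the other windows' bounds were not.

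Along the chromosome, the difference was present in bins from one end of the stretch to the other. In each of the 8 bins of 5 Mb both KO1 medians were below both parental medians, which was so in 4 of the 18 bins on the rest of chromosome 11, with the reverse in 5. The same separation was seen in 12 of 18 bins of 2 Mb with at least 5 regions and in 22 of 31 bins of 1 Mb, against 12 of 38 and 18 of 65 on the rest of the chromosome. The 5 Mb medians of the difference ran from −10.9 points at 95 to 100 Mb to −4.98 points at 100 to 105 Mb. At 2 Mb, 18 of 18 bins had a median difference below 0, and so had 17 of 38 on the rest of the chromosome. At 1 Mb it was 29 of 31 against 33 of 65, and the 2 exceptions were 106 to 107 Mb, with a median of 2.43 over 11 regions, and 127 to 128 Mb, with 3.27 over 6 regions. In both exceptions the first and second libraries pointed opposite ways, with 11.1 and −3.75 at 106 to 107 Mb and 4.98 and −4.57 at 127 to 128 Mb.

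**Figure D2:**
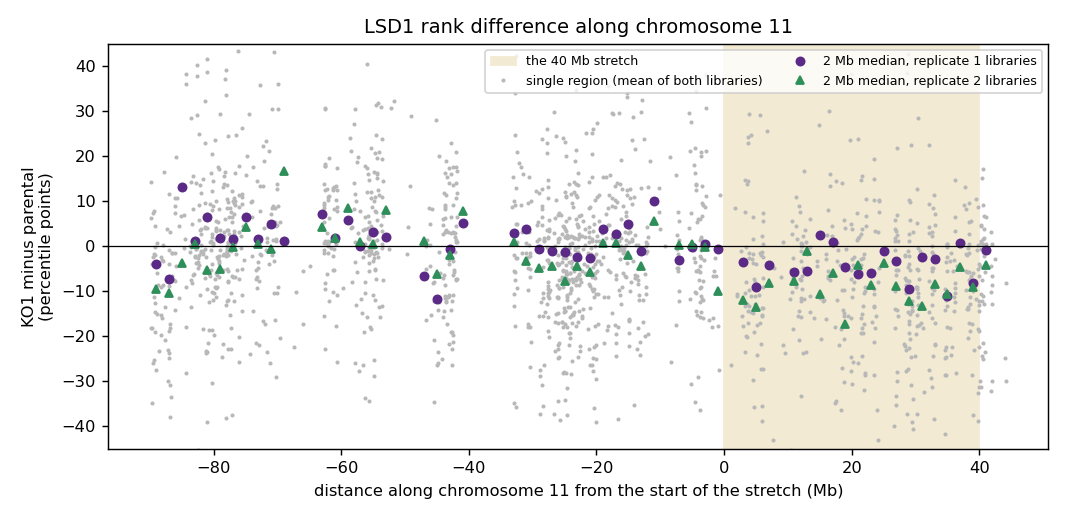
KO1 minus parental percentile (vertical axis, points) against distance from the start of the stretch along chromosome 11 (horizontal axis, Mb); grey dots are single regions found in all 4 lists, circles and triangles are medians over 2 Mb bins with at least 5 regions for the first and second libraries, and the shaded band is the 40 Mb stretch. Within the band both bin medians are below 0 in 15 of 18 bins, and 13 of the 1788 dots lie beyond the axis.

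The bins with the most regions lay in the second part of the stretch. At 120 to 125 Mb, 77 regions had medians of 72.6 and 73.8 in parental and 60.8 and 60.6 in KO1, and 61 of them were lower in KO1. At 115 to 120 Mb, 72 regions had medians of 59.4 and 64.9 in parental and 47.8 and 52.8 in KO1. The narrowest separation was at 105 to 110 Mb, where the medians were 63.2 and 68.4 in parental and 60.8 and 47.6 in KO1, so that the first libraries of the genotypes were close and the second were far apart.

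**Figure D3:**
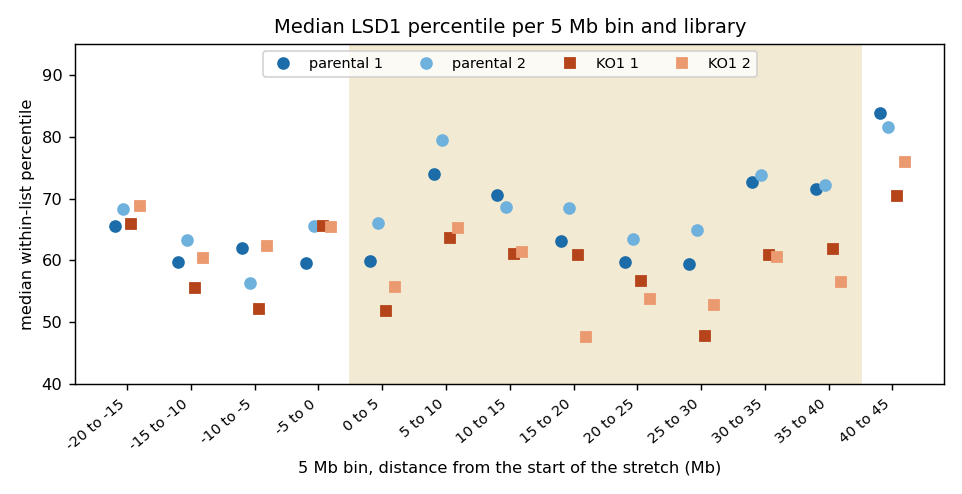
Median within-list percentile (vertical axis, starting at 40) of the regions found in all 4 lists in 5 Mb bins, by distance from the start of the stretch (horizontal axis, Mb); circles are parental and squares are KO1 libraries, and the shaded band marks the 8 bins of the stretch. The KO1 squares lie below both parental circles in 8 of the 8 shaded bins.

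In the main search no end of the lower rank was placed before the last region found in all lists, and the start was not sharp. As a run of 1 Mb bins with a median below 0, the lower rank ended earlier, at 106000000. The search sought the single interval of chromosome 11, of at least 30 regions, whose KO1 minus parental difference departed most from the remainder. The departure was the squared difference in mean, weighted by the numbers of regions inside and outside. The interval returned was the middle of the chromosome, chr11:3887132-87184474, whose 1210 regions had a median difference of −0.10 points. The 578 regions outside it had a median of −8.07. The lower distal stretch was taken as what follows the middle interval. It therefore began at position 87637700 and ran to the last region found in all lists, which ended at 134136908. The last summit of any list was at 134820668. An earlier end could not be returned in this way. A search limited to intervals with a lower difference inside, which was not planned, returned the same start and end. The first 4 Mb of the short arm also lay outside, with a median of −7.58 over 68 regions.

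Compared by replicate number, the libraries put the start at different places. The first libraries alone placed it at 94501398 and the second libraries alone at 87184440. The regions on either side of the joint start differed as the search requires. The last region before it, chr11:87184440-87184474, stood at 54.9 and 75.7 in parental and 90.8 and 62.0 in KO1, so the genotypes overlapped there. The first region after it, chr11:87637700-87637800, stood at 48.3 and 37.8 in parental and 25.6 and 27.8 in KO1, with no overlap.

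Few regions lay where the start falls, which limits how finely it can be placed. Between 87 and 90 Mb there were 15 regions found in all lists, with a median of −5.46 points, of which the first libraries gave 0.08 and the second −9.56. The 6 regions at 87 to 88 Mb had a median of 16.2 points, with 5 of them higher in KO1, and the 6 at 88 to 89 Mb had a median of −6.54, with all 6 lower. Before 87 Mb the medians were −2.08 at 85 to 87 Mb (n = 55) and 0.24 at 80 to 85 Mb (n = 26). Farther up the long arm, at 60 to 70 Mb, 313 regions had a median of −4.09 points, and at 70 to 80 Mb 157 regions had a median of 0.60.

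Single regions at the bounds of the stretch show how the choice of 90 and 130 Mb falls. The nearest region found in all lists before 90 Mb, chr11:89340165-89340317, stood at 60.5 and 76.9 in parental and 81.9 and 78.2 in KO1, higher in KO1. The nearest one after 90 Mb, chr11:91129720-91129930, stood at 80.1 and 79.97 in parental and 49.8 and 57.6 in KO1, lower in KO1. At the other bound, chr11:129994093-129994153 stood at 73.9 and 63.5 in parental and 61.9 and 37.8 in KO1, and chr11:130026707-130026747 just beyond stood at 53.8 and 68.3 against 57.3 and 36.2. The 32 regions at 130 to 131 Mb had a median of −1.23 points and the 13 from 131 Mb onward a median of −8.57, of which the first libraries gave −16.3 and the second −0.18.

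Weak regions differed more in percentile than strong ones. Regions with a mean percentile below 50 over the 4 libraries (n = 172) had a median difference of −12.9 points, those from 50 to 80 (n = 188) −9.70 and those at 80 or above (n = 99) −3.26. On the rest of chromosome 11 the same tiers gave −1.48, −1.17 and −0.09. The share of regions that were lower in KO1 was similar in the tiers, at 74.4%, 73.9% and 73.7%. On the rest of chromosome 11 these shares were 53.8%, 53.6% and 51.4%, and on the other chromosomes 53.4%, 51.9% and 51.1%. With the −log10 value divided by the median of its list, a scale that has no upper bound, the log2 differences were −0.56, −0.43 and −0.29 in the tiers and −0.44 over the 459 regions, against −0.05 on the rest of the chromosome.

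**Figure D4:**
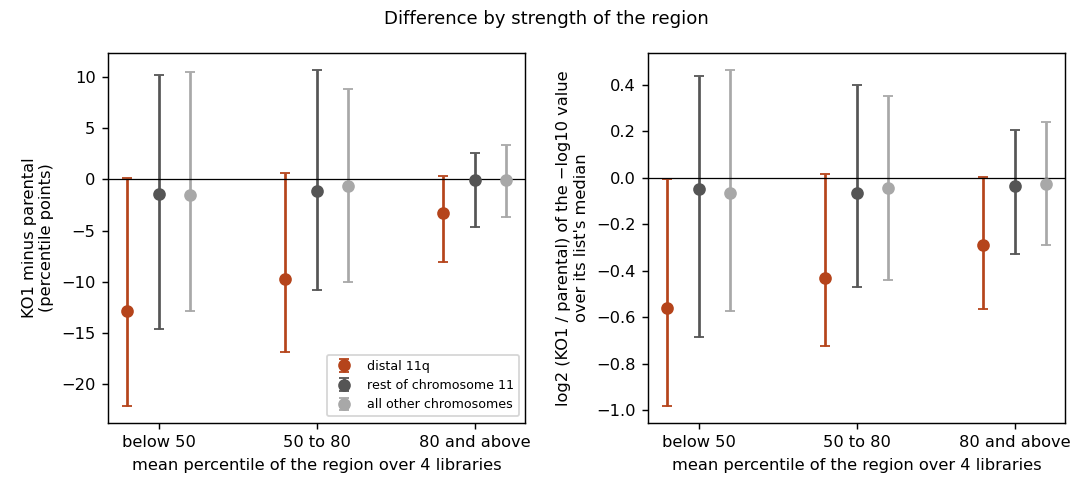
KO1 minus parental difference by strength of the region (horizontal axis, mean percentile over the 4 libraries), in percentile points on the left and as log2 of the −log10 value over its list's median on the right; points are medians over regions found in all 4 lists and bars run from the lower to the upper quartile of the regions. Distal 11q lies below the rest of chromosome 11 and the other chromosomes in all 3 tiers on both scales.

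The strongest LSD1 regions of the stretch stood near the top of all 4 lists. The strongest was chr11:122513368-122513493, at 99.6 and 99.5 in parental and 99.5 and 99.99 in KO1. The next were chr11:124949011-124949196, at 98.8 and 99.6 against 98.8 and 99.5, and chr11:95888991-95889246, at 99.5 and 99.5 against 99.3 and 97.0. In the first 2 of these the genotypes overlapped.

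Among the 10 strongest regions 8 were lower and 2 were higher in KO1, with differences between −2.18 and 1.45 points. The region with the 1.45 points was chr11:110779010-110779120, at 98.0 and 97.9 in parental and 99.4 and 99.4 in KO1. The largest negative value among them was at chr11:118972981-118973064, at 99.4 and 99.1 in parental and 98.7 and 95.4 in KO1. Of the 42 regions with a mean percentile of at least 90, 34 were lower and 8 higher in KO1, with a median of −2.09 points. The nearest comparison elsewhere is the tier of 80 and above. There 51.4% of regions were lower on the rest of chromosome 11 and 51.1% on the other chromosomes.

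Among regions found in all 4 lists, the largest single differences were in regions of middle rank, which the bounded percentile scale requires of a large difference. At chr11:122720811-122721086 the percentiles were 78.6 and 80.3 in parental and 15.7 and 6.30 in KO1, a difference of −68.5 points. The −log10 values behind them were 38.5 and 47.0 in parental and 6.26 and 4.26 in KO1. Both parental libraries placed this region in the upper part of their lists and both KO1 libraries near the bottom, while the strongest region of the stretch, in the same 1 Mb bin, was at the top in all 4. That bin, 122 to 123 Mb, held 28 regions found in all lists, of which 19 were lower in KO1, with a median of −6.57 points.

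The next regions of all 4 lists in order of difference had wider spread between libraries. The second, chr11:124752244-124752810, stood at 71.7 and 60.3 in parental and 3.38 and 27.8 in KO1. The third, chr11:100558695-100558760, stood at 71.9 and 57.1 in parental and 34.9 and 3.61 in KO1. In both, 1 KO1 library was near the bottom of its list and the other was clearly above it, with no overlap with parental. The other 7 of the 10, at −43.0 to −38.8 points, lay between chr11:95940976-95941059 and chr11:124632610-124633200. Of these, chr11:95940976-95941059, had the closest replicates, at 49.996 and 45.9 in parental and 7.54 and 10.6 in KO1.

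Regions found in both parental lists and a single KO1 list held 1 larger difference. At chr11:118187228-118187518 the percentiles were 81.8 and 91.0 in parental and 7.92 in the second KO1 library, with no summit in the first. In 5 such regions the difference was larger than in the second of the regions above.

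Among regions of all 4 lists, higher rank in KO1 was rarer, and its leading examples lay inside a bin that was otherwise lower. At chr11:118809312-118809465 the percentiles were 40.7 and 43.8 in parental and 86.97 and 83.0 in KO1, a difference of 42.8 points, with −log10 values of 13.6 and 15.3 against 54.6 and 42.1. At chr11:118691254-118691363 they were 22.6 and 16.5 in parental and 60.6 and 55.7 in KO1. Both lie at 118 to 119 Mb, where 24 of 28 regions were lower in KO1 and the median was −9.05 points. The third, chr11:109930626-109930662, stood at 27.0 and 33.1 in parental and 61.4 and 75.3 in KO1.

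The other 2 of the 5 higher regions rested on less even libraries. At chr11:106490218-106490717 the parental percentiles were 29.5 and 0.08 and the KO1 percentiles 40.7 and 49.2. At chr11:93851165-93851267 they were 16.8 and 37.8 in parental and 70.8 and 42.8 in KO1. In the latter the second parental and second KO1 libraries were close together, as the plot of the regions with the largest differences shows.

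**Figure D5:**
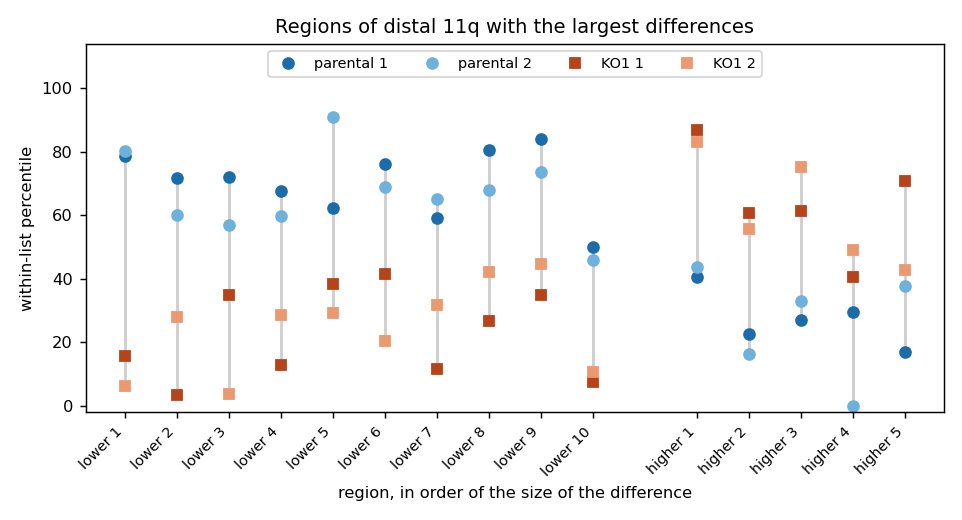
Within-list percentile (vertical axis) in each library for the 10 regions of distal 11q with the most negative and the 5 with the most positive difference among those found in all 4 lists whose genotypes did not overlap, in order of size (horizontal axis); circles are parental, squares are KO1 and grey lines join the lowest and the highest library. The first lower region runs from about 80 in parental to 15.7 and 6.30 in KO1, and the first higher region from 40.7 and 43.8 to 86.97 and 83.0.

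LSD1 regions were somewhat sparser on the stretch than on the rest of the chromosome. Distal 11q had 22.6 regions per Mb, 11.5 of them in all 4 lists, against 28.1 and 15.4 on the rest of chromosome 11. The median distance to the next region was 14.0 kb against 12.1 kb. The longest span without a summit was 1392 kb, chr11:114372893-115764684. A neighbour within 5 kb was found for 47.3% of the distal regions and for 45.5% of the others, so close neighbours were about as common.

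Within regions found in all 4 lists, the genotypes' summits lay about as close on distal 11q as on the rest of the chromosome. A summit more than 500 bp from the next was counted in another region. Places where the genotypes' summits lay farther apart are therefore left out of this measure. For each region the positions of the strongest summits were averaged over the 2 libraries of a genotype. The parental and KO1 mean positions were 36.5 bp apart on distal 11q and 35.0 bp on the rest of the chromosome, as medians. Within genotypes the replicate libraries were 40 bp (parental) and 49 bp (KO1) apart on distal 11q. These are distances between single libraries, so they are not on the same measure as distances between means. The genotypes' mean positions were within 100 bp in 80.6% of the distal regions and in 79.6% of the others. Regions found in all lists had a median width of 101 bp against 102 bp. A mean percentile of at least 90 over the 4 libraries, which includes the KO1 ranks the stretch was chosen on, was seen in 42 of 459 distal regions (9.15%), in 13.4% on the rest of chromosome 11 and in 10.9% on the other chromosomes.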

How the data were processed

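CUT&RUN for LSD1 was done on MDA-MB-231 cells, 2 libraries of parental and 2 of RCOR2-KO1 cells. The authors called peaks in each library against normal rabbit IgG and deposited the summits with a −log10 of a p or q value, of which the lowest in each list was 1.31 to 1.40. The submitters' processing notes name Bowtie2 2.3.3.1, FastQC 0.11.2, Picard, MACS2 2.1.0 and hg19. The depth of the libraries is not known, and no counting error can be given.

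Summits on chromosomes 1 to 22 and X were ranked within each list and joined at 500 bp (Python 3.11.15, pandas 2.3.3, numpy 2.4.6). Medians were taken over regions found in all 4 lists and in bins of 1, 2 and 5 Mb. The interval of chromosome 11 with the largest sum of squares between it and the remainder was searched. That measure weights the squared difference in mean by the numbers of regions inside and outside. On simulated lists 50 of 50 removed regions of each kind were recovered. These lists held only regions found in all 4 lists, without single-list summits. Recovery was therefore largely fixed by the setup and does not bear on summits just beyond the joining distance. The start of a simulated low stretch was found 116 kb off and its end 0.04 kb off. That stretch had a uniform drop, lay inside the chromosome and was itself the interval returned. In the data the search returned the middle of the chromosome instead. The simulated errors therefore do not measure how closely the real start or end was placed.

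The stretch, the lists and the rules were chosen with earlier results of these data known. Regions named are the 10 strongest, the 10 lowest and 5 highest differences without overlap between genotypes, the 5 strongest of each one-genotype kind, and those nearest each bound and edge. The RefSeq table of GRCh38 gave only the order of genes. Alternatives changed the joining distance, the length of the lists, the ranking, the libraries used, the replicate pairing, the bins and the search.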

Additional observations from a re-analysis of the deposited data

How the results depend on the processing

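The median difference on distal 11q was below 0 under each alternative run. Its value of −8.50 points became −5.70 for the first libraries alone and −0.44 as a log2 ratio. The distal median minus that of the rest of chromosome 11, −7.82 points, was −7.50 and −8.24 with joining at 250 and 1000 bp, −9.21 in the upper 50% of each list, −8.00 with lists of equal length, −8.49 with percentiles over shared regions and −0.39 on the log2 scale. Paired by replicate number it was −6.44 and −6.31, with a mean of −6.38. The replicate differences of both genotypes were not correlated over 35861 regions (r = 0.007, a description across regions). Whether libraries of the same number were handled together is not stated. Leaving out each library gave −7.74 to −7.38. Counts depended on the lists. In the upper 50% there were 213 regions in all lists and 8 KO1-only, with 6.13 parental-only for each KO1-only region. The rest of chromosome 11 gave 0.93 under this cut, with 55 parental-only and 59 KO1-only regions. A summit below its list's median then counts as absent, so this ratio also reflects the ranks the stretch was chosen on. Leaving out each library gave 85 to 146 parental-only and 44 to 70 KO1-only regions, since a single list then stands for a genotype. The start moved to 94501398 for the first libraries, to 94578988 for the long arm alone, to 62528955 in the upper 50% and between 87637700 and 94277095 without each library. It was 94277095 without parental replicate 2 and 94227066 without KO1 replicate 1. The end moved to 132502887 in the upper 50%, to 106000000 as a run of 1 Mb bins and between 134136901 and 134136908 without each library. The causes of the other moves were not tested. The search on the long arm alone was chosen after seeing the data.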
